A study of Rattus norvegicus with 9 samples.

Results

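The 5 genes described here are the insulin-like growth factor (Igf) genes Igf2 and Igf1, the receptor genes Igf2r and Igf1r, and H19, the noncoding neighbour of Igf2, out of 17315 genes counted in rat pXEN cells. The genes were chosen by name from the deposited tables with the counts of these libraries in view, and the counts that set them apart were those of culture in 3 media. Their differences between media are therefore given as a description, without a test. All 9 libraries came from the pXEN line RX1 of the WKY strain. pXEN cells are stem cells of the primitive endoderm, the early embryonic layer that forms the endoderm of the yolk sac, and 1 line stood for the cell type in every group. The T cultures grew on fibronectin (100 ng/ml) in DMEM/MCDB medium, with the glucocorticoid dexamethasone at 0.5 µM, fetal bovine serum at 2%, and Pdgf, Egf and Lif, each at 10 ng/ml. The LPE cultures grew on collagen I (10 µg/ml) in DMEM/F12 and Neurobasal medium with the serum-free supplements N2 and B27 and with Lif, Pdgf and Egf at 10 ng/ml each. The CPE cultures differed from LPE in that Lif was replaced by Chir99021 at 1 µM, which inhibits Gsk3 and so switches on the Wnt pathway. Pdgf and Egf, both ligands of receptor tyrosine kinases, were thus common to all 3 media. Serum, dexamethasone, the coating and the basal medium all differ between T and the other media, so their effects cannot be told apart in comparisons with T. In CPE against LPE, the addition of Chir99021 came with the removal of Lif, so their effects cannot be told apart either.

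Igf2 and Igf1 are secreted growth factors that act through Igf1r, a receptor tyrosine kinase. Igf2r, also the cation-independent mannose 6-phosphate receptor, takes up Igf2 for breakdown in lysosomes and sorts lysosomal enzymes. Igf2 is transcribed from the paternal allele and H19 from the maternal allele of 1 imprinted region with shared enhancers, and Igf2r is transcribed mainly from the maternal allele in rodents. The extraembryonic tissues of the rodent embryo are known for strong transcription of Igf2 and H19.

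Gene-strand reads numbered 1698764 to 2161228 in T, 3119049 to 3233526 in LPE and 3127352 to 4418465 in CPE. Levels are given in CPM, counts scaled to a common library total, and 1 count was worth 0.465 to 0.579 CPM in T, 0.311 to 0.321 in LPE and 0.227 to 0.322 in CPE. For genes with 20 to 99 counts, the variance between replicates was 1.34 to 2.07 times that of counting alone in T, 9.93 to 15.6 times in LPE and 7.39 to 11.6 times in CPE. Exactly 1 count was found for 511 to 791 genes in each T library, and for 26 to 58 in LPE and 33 to 92 in CPE, so counts of 1 were rare in the serum-free media, and the reason was not tested. Counts of 0 in LPE or CPE therefore carry more error than counting gives. Intervals, limits and folds against a floor of 3 counts below cover counting error only, and in LPE and CPE a floor of 3 counts may be too low. The labels do not say that replicates came from separate cultures, so spreads and p-values measure only the differences between these libraries. The fit behind the p-values shared 1 estimate of the spread per gene among the media, although their spreads differed as given above. The p-values for CPE against LPE may therefore be too small, which was not tested. Primitive endoderm markers were present in every library, with all 10 listed detected and summed levels of 4372 to 4488 CPM in T, 4889 to 5240 in LPE and 3257 to 3383 in CPE. The sums hide single markers that moved in both directions. Sox17, Pdgfra, Dab2, Cubn and Amn were lower in CPE than T, and Gata6, Sox7, Foxa2 and Lrp2 higher. Amn had 117 to 135 CPM in T and 7.27 to 11.5 in CPE, and Lrp2 71.8 to 111 and 203 to 360.

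The sequences just upstream of Igf2r, Igf2 and Igf1 are shown because these 3 protein-coding members were high in CPE. That medium held the Wnt activator and lacked Lif, and the part of either change in these levels was not tested. Each line gives the 250 bases before a transcription start in RefSeq on build GRCr8, 5′ to 3′ on the gene's strand, with the motifs searched for in capitals. The motifs were TCACGTGA (an extended E-box, the kind of element bound by the lysosomal regulator Tfeb), a Tcf/Lef core (the letters CTTTG followed by any of AA, AT, TA and TT, as in sites of these Wnt effectors), and GGGCGG (the GC box bound by Sp1), on both strands and with no overlap among the matches shown. TCACGTGA was chosen after the Igf2r sequence had been read.
Igf2r, chr1:50526628-50526877, plus strand: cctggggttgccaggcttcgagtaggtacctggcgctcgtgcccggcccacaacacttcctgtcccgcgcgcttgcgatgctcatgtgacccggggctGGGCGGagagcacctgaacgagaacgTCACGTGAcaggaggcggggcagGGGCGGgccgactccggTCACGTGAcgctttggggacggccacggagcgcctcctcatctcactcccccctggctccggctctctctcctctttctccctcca
Igf2, start nearer the coding region, chr1:207250476-207250725, minus strand: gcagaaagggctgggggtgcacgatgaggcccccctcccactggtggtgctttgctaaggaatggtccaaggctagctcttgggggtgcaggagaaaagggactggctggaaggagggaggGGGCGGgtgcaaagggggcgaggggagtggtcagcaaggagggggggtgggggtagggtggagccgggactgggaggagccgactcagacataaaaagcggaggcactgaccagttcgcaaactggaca
Igf1, chr7:24172282-24172531, plus strand: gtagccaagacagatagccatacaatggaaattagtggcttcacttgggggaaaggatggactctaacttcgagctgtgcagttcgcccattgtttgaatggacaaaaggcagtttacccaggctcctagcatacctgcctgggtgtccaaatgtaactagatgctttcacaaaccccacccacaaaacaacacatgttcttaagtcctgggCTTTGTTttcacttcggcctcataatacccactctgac

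The Igf2r window held TCACGTGA at 2 places, with first bases 126 and 86 bases before the start, among 2 GC boxes. TCACGTGA was found at least once in 0.657% of the 33469 RefSeq windows of the same length and at least 2 times in 12 of them. Nothing is read from this rarity, since TCACGTGA was chosen after the Igf2r sequence had been read. A Tcf/Lef core was found in 14.9% of all windows, and among the members' windows in that of Igf1, 38 bases before the start. The GC box was found in 30.5% of all windows, and was present in those of Igf2r, Igf1r and the printed start of Igf2. The window at the more distal Igf2 start held none of the 3 motifs. These matches describe letters in a window, and binding was not measured.

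H19, a spliced noncoding RNA of fetal tissues, was intermediate in T, lowest in LPE and highest in CPE. Its level was 56.7, 61.4 and 51.6 CPM in T replicates 1, 2 and 3 (mean 56.6 ± 4.89, SD, n = 3), from 104, 106 and 111 counts. In LPE it was 7.35, 9.01 and 0 CPM (mean 5.46 ± 4.80, SD, n = 3), from 23, 29 and 0 counts. In CPE it was 828, 442 and 1262 CPM (mean 844 ± 410, SD, n = 3), from 2809, 1948 and 3919 counts. The 3 groups did not overlap, and the CPE libraries spread over 2.85-fold. Mean H19 in CPE was 14.9-fold that in T and 155-fold that in LPE, and the lowest CPE library still had 7.21 times the highest T and 49.1 times the highest LPE library. The ratio of CPE to LPE means ranged from 103 without LPE replicate 3 to 230 (229.7) without LPE replicate 2. Mean H19 in T was 10.4-fold that in LPE, and 6.91-fold without LPE replicate 3 or 15.4-fold without LPE replicate 2.

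Igf2, the fetal growth factor, was near the counting floor in T and LPE and high in CPE. T libraries held 4, 3 and 6 counts, or 2.18, 1.74 and 2.79 CPM (mean 2.24 ± 0.528, SD, n = 3). LPE replicate 1 held 22 counts (7.03 CPM), whereas LPE replicates 2 and 3 held 0, for a mean of 2.34 ± 4.06 CPM (SD, n = 3). The LPE mean thus came from 1 library, and the LPE and T libraries overlapped. In CPE, Igf2 had 1130, 785 and 1645 counts, or 333, 178 and 529.9 CPM (mean 347 ± 176, SD, n = 3). Every CPE library lay far above every other library, by at least 63.9 times over the highest T library and 25.4 times over LPE replicate 1. The ratio of means was 155 for CPE over T and 148 for CPE over LPE. Without LPE replicate 1 the remaining LPE libraries were empty, and CPE was then at least 367-fold higher than a floor of 3 counts per library.

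Igf2r, the clearance and sorting receptor, was low in T and LPE and, like the ligands, high in CPE. It had 18.0, 8.69 and 15.3 CPM in T (mean 14.0 ± 4.80, SD, n = 3), from 33, 15 and 33 counts. LPE libraries had 16.6, 32.6 and 34.0 CPM (mean 27.7 ± 9.66, SD, n = 3), from 52, 105 and 106 counts. LPE replicate 1 lay within the T range, so these groups overlapped. CPE libraries had 459, 427 and 684 CPM (mean 523 ± 140, SD, n = 3), from 1557, 1879 and 2125 counts. CPE means were 37.4-fold those of T and 18.9-fold those of LPE, without overlap. The spread among CPE libraries, 1.60-fold, was smaller than for H19 and Igf2.

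Igf1, the other ligand of Igf1r, had the same order of media in its means as H19, with smaller ratios. T libraries had 18.0, 8.69 and 13.9 CPM (mean 13.5 ± 4.67, SD, n = 3), from 33, 15 and 30 counts. LPE libraries had 7.35, 4.66 and 11.2 CPM (mean 7.74 ± 3.30, SD, n = 3), from 23, 15 and 35 counts. T and LPE overlapped, with LPE replicate 3 above T replicate 2. CPE libraries had 125, 92.0 and 159 CPM (mean 125 ± 33.6, SD, n = 3), from 425, 405 and 494 counts. CPE exceeded T by 9.26-fold and LPE by 16.2-fold in means, with no overlap.

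Igf1r, the signalling receptor, was at or under 3 counts in 8 of 9 libraries. The counts were 2, 3 and 2 in T (1.09, 1.74 and 0.930 CPM), 0 in all LPE libraries, and 0, 7 and 0 in CPE, where replicate 2 had 1.59 CPM. It did not pass the filter on low counts, and no fold is given. The 3 counts that a count of 0 allows correspond to 0.932 to 0.962 CPM in LPE, so Igf1r was not detectable there at this depth, as far as counting error alone sets the limit. The other 4 members passed the filter, Igf2 through its CPE libraries.

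**Figure D1:**
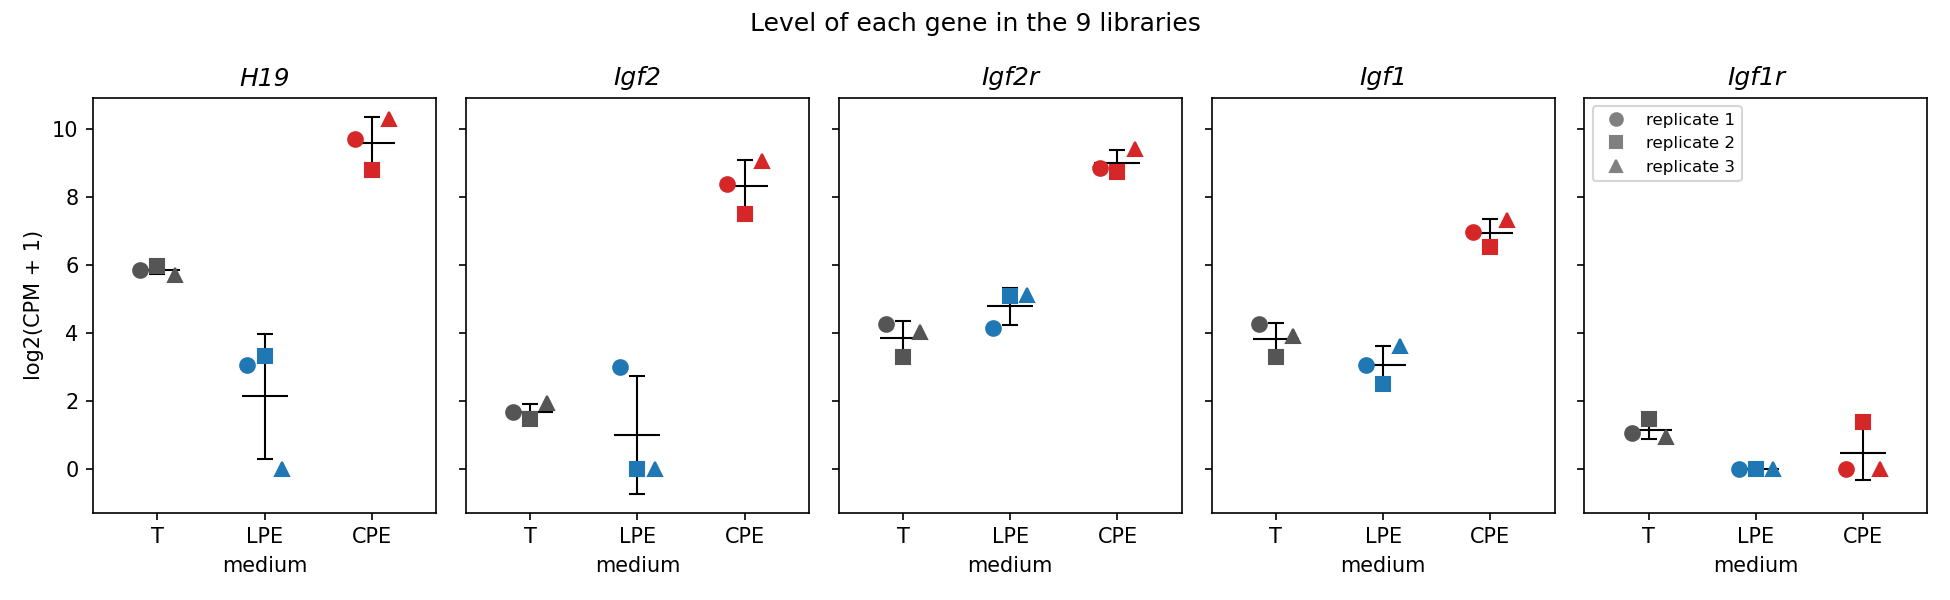
Levels of H19, Igf2, Igf2r, Igf1 and Igf1r as log2(CPM + 1) on the vertical axis, by medium on the horizontal axis; symbols are libraries by replicate number, and bars give mean ± SD (n = 3). The CPE libraries of H19, Igf2, Igf2r and Igf1 lie above all T and LPE libraries, and Igf1r stays near 0.

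On the scale of the fitted log2 fold changes, CPE against T gave 7.23 for Igf2, 5.21 for Igf2r, 3.90 for H19 and 3.20 for Igf1. Of the 9130 genes tested, 11 had a larger rise than Igf2 in this comparison, 35 a larger one than Igf2r, 95 than H19 and 153 than Igf1. CPE against LPE gave 7.25 for H19, 7.19 for Igf2, 4.23 for Igf2r and 4.01 for Igf1. LPE against T gave -3.35 for H19, -0.81 for Igf1, 0.03 for Igf2 and 0.97 for Igf2r. The comparisons share their groups (the CPE libraries enter both contrasts of CPE), so their values are not independent. All 4 filtered members had CPE libraries above all T and all LPE libraries, and among all tested genes 26.2% were without overlap and higher in CPE than T, and 16.8% were so for CPE against LPE. H19 had LPE libraries below all T libraries, as did 25.4% of genes tested. Nothing is read from these counts, nor from the numbers of genes with a larger rise, since the members were chosen for this pattern. In bulk RNA, more cells that transcribe a gene and more RNA per cell cannot be told apart, nor can fewer cells of a type and less RNA per cell.

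The balance of H19 and Igf2 reads was compared across libraries. Alleles were not measured, so whether either gene was read from 1 parental allele in these cells is not known from these data. Read counts were not corrected for transcript length, so each share is meaningful only against the same share in another library. Igf2 made up 28.7% (95% Wilson interval 27.3 to 30.1), 28.7% (27.1 to 30.4) and 29.6% (28.4 to 30.8) of Igf2 plus H19 reads in CPE replicates 1, 2 and 3. The CPE shares lay within each other's intervals although the level of each gene varied nearly 3-fold among these libraries (2.85-fold and 2.97-fold). In T the share was 3.70% (1.45 to 9.14), 2.75% (0.940 to 7.78) and 5.13% (2.37 to 10.7), from 4, 3 and 6 Igf2 reads. The intervals cover counting error only, and the difference in share between media was not tested. LPE replicate 1 had 48.9% (35.0 to 63.0) of 45 reads, LPE replicate 2 had 0 of 29, which allows a share of up to 10.3%, and LPE replicate 3 had no read of either gene. The LPE libraries thus did not give 1 common share.

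The 2 other pairs computed were less even among CPE libraries. Igf1 made up 27.3%, 34.0% and 23.1% of Igf1 plus Igf2 reads in CPE replicates 1, 2 and 3, and 83.3% to 89.2% in T. Igf2r made up 35.7%, 49.1% and 35.2% of Igf2r plus H19 reads in CPE. CPE replicate 2 had the lowest H19, Igf2, Igf2r and Igf1 levels of its group, and stood apart in both of these shares.

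Reads on the strand opposite to Igf2r were counted separately by the authors. In mouse the noncoding RNA Airn starts within Igf2r and runs against it. Airn was not matched by symbol and is not analysed here. Opposite-strand reads numbered 4, 9 and 11 in T, 26, 13 and 46 in LPE, and 0, 43 and 20 in CPE. In CPM they were 2.18, 5.21 and 5.11 in T, 8.31, 4.04 and 14.7 in LPE, and 0, 9.77 and 6.44 in CPE, so the groups overlapped. Because gene-strand reads were many more in CPE, the opposite strand's share of Igf2r reads was 0 (up to 0.193% is allowed), 2.24% (95% exact interval 1.62 to 3.002) and 0.932% (0.570 to 1.44) there. In T it was 10.8%, 37.5% and 25.0%, and in LPE 33.3%, 11.0% and 30.3%. Over whole libraries, the opposite strand held 0.822% to 0.986% of gene reads. The Igf2r shares of all T and LPE libraries were therefore above this level, and those of CPE lay between 0 and 2.24%.

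**Figure D2:**
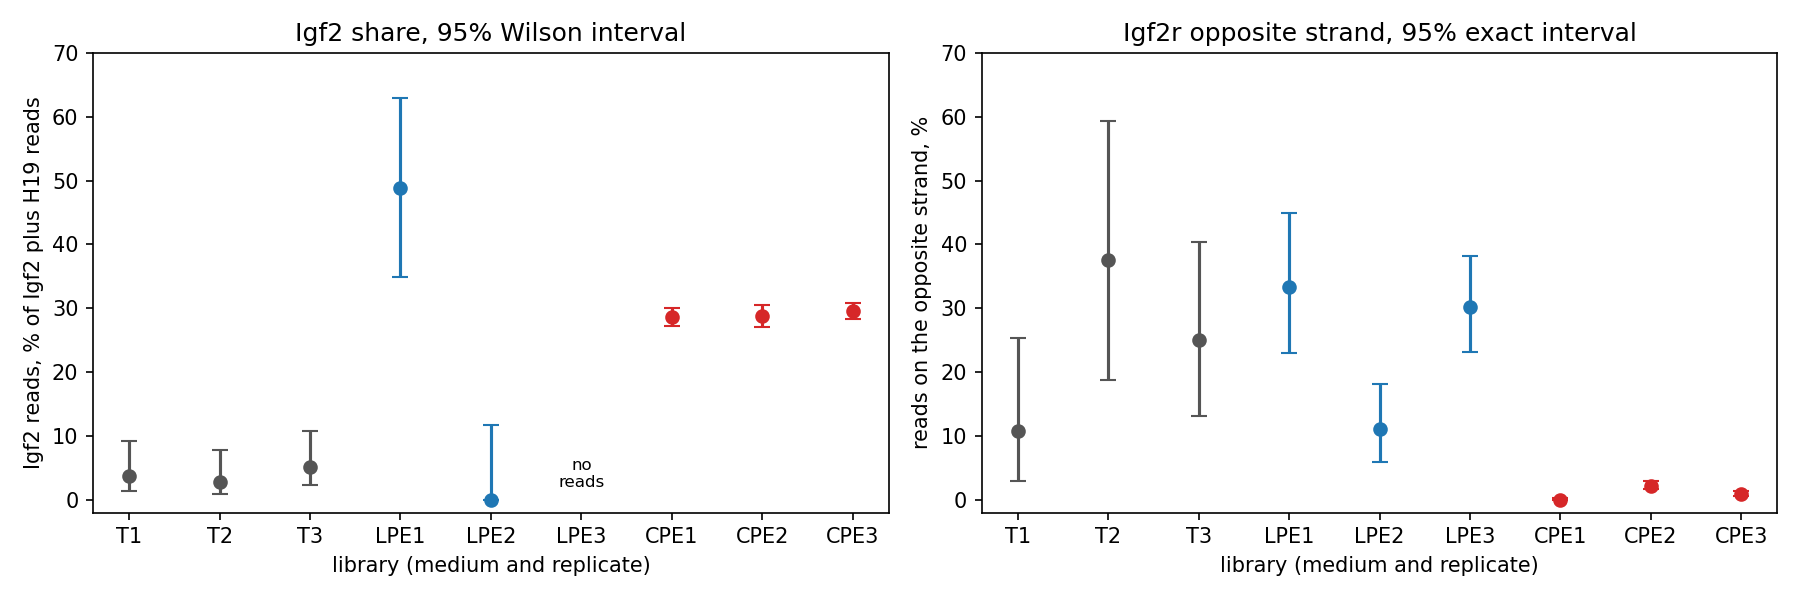
Left, Igf2 reads as a percent of Igf2 plus H19 reads in each library with 95% Wilson intervals; right, opposite-strand reads as a percent of all Igf2r reads with 95% exact intervals. The CPE libraries sit together at 28.7% to 29.6% on the left and at 0 to 2.24% on the right, and LPE replicate 3 has no Igf2 or H19 read.

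The miRNAs encoded within H19 and Igf2 are shown with the seed, bases 2 to 8, in capitals, because they lie within genes measured here. RefSeq places miR-675 inside H19 and miR-483 inside Igf2.
rno-miR-675-5p: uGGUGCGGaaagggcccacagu
rno-miR-675-3p: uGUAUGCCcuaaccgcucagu
rno-miR-483-5p: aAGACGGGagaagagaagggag
rno-miR-483-3p: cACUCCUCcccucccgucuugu
The 4 seeds differ from each other, so no 2 of these miRNAs group by seed. The libraries were not made for small RNA, and mature miRNA was not measured. The Mir675 row had 0 counts in all 9 libraries. The Mir483 row had its highest count, 4, in CPE replicate 3, where Igf2 was also highest, and 0 in every T library.

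The genes around the members were taken from 7 lists of Igf biology with 83 genes, of which 75 were in the tables and 52 passed the filter. A gene rose or fell where the adjusted p of edgeR's quasi-likelihood test over all 9130 genes was under 0.05. In LPE against T, 14 rose, 7 fell and 31 did not pass, with a median log2 fold change of 0.18 beside -0.03 for all genes, of which 15.0% rose and 14.7% fell. Without T replicate 1, 2 or 3, 4 of the pathway genes fell, and without T replicate 3, 892 in place of 1343 of all genes fell. In CPE against T, 15 rose, 4 fell and 33 did not pass, with a median of 0.12 beside -0.01, where 16.8% of all genes rose and 15.3% fell. Without T replicate 3, 11 in place of 19 were called, of which 1 fell, and 2 fell without T replicate 1 or CPE replicate 3. In CPE against LPE, 6 rose, 7 fell and 39 did not pass, with a median of 0.06 beside 0.01, where 9.56% of all genes rose and 8.23% fell.

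Of the Igf binding proteins, which hold Igf1 and Igf2 outside cells, Igfbp2 changed in all 3 comparisons. It had 6.002, 8.69 and 4.65 CPM in T, 0 in all LPE libraries, and 56.3, 14.3 and 15.8 CPM in CPE, so it shared with H19 the order LPE, T, CPE. LPE was at least 6.78-fold lower than T (edgeR adjusted p = 0.000783) and CPE at least 30.3-fold higher than LPE (edgeR adjusted p = 0.000127), both against 3 counts per library. Without CPE replicate 1 the latter bound was 15.8-fold. CPE was 4.46-fold higher than T (edgeR adjusted p = 0.0308), and this was lost on leaving out CPE replicate 1 (log2 fold change 1.22 in place of 2.16, adjusted p = 0.334) or T replicates 1, 2 or 3 (0.105, 0.0667 and 0.119), and with a replicate block (0.0778). Igfbp3, the main carrier of circulating Igfs, had means of 21.8, 35.8 and 21.1 CPM in T, LPE and CPE, and Igfbp4, an inhibitory binding protein, 24.7, 25.4 and 10.6 CPM, and neither passed in any comparison. Igfbp1 was at 0 in all libraries, Igfbp5 had 1 count in T replicate 3, Igfbp6 had 15, 0 and 17 counts in CPE alone, and Igfbp7 had 5, 4 and 6 counts in T alone. Htra1, a secreted protease that cleaves binding proteins, fell 1.48-fold from 2664 CPM in T to 1797 in LPE (edgeR adjusted p = 0.000919). Of the list's 4 tested genes, 2 fell in LPE against T (median log2 fold change -0.26), 1 rose in CPE against T (median -0.14) and 1 rose in CPE against LPE (median -0.22). Among all genes tested, 14.7% fell in LPE against T, 16.8% rose in CPE against T and 9.56% rose in CPE against LPE.

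Insr, the insulin receptor, whose A isoform also binds Igf2, was detected in every library, unlike Igf1r. Its levels were 45.3, 29.0 and 50.7 CPM for T, 71.0, 41.6 and 44.6 CPM for LPE, and 74.9, 88.3 and 63.1 CPM for CPE. CPE was 1.81-fold higher than T, without overlap (edgeR adjusted p = 0.0295), a call lost without T replicate 1 or 2 (adjusted p = 0.0698 and 0.15) or CPE replicate 1 or 2 (0.0618 and 0.118). LPE did not pass against T (edgeR adjusted p = 0.431), nor CPE against LPE (edgeR adjusted p = 0.208). The insulin genes Ins1 and Ins2, the latter next to Igf2, were at 0 in all libraries.

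**Figure D3:**
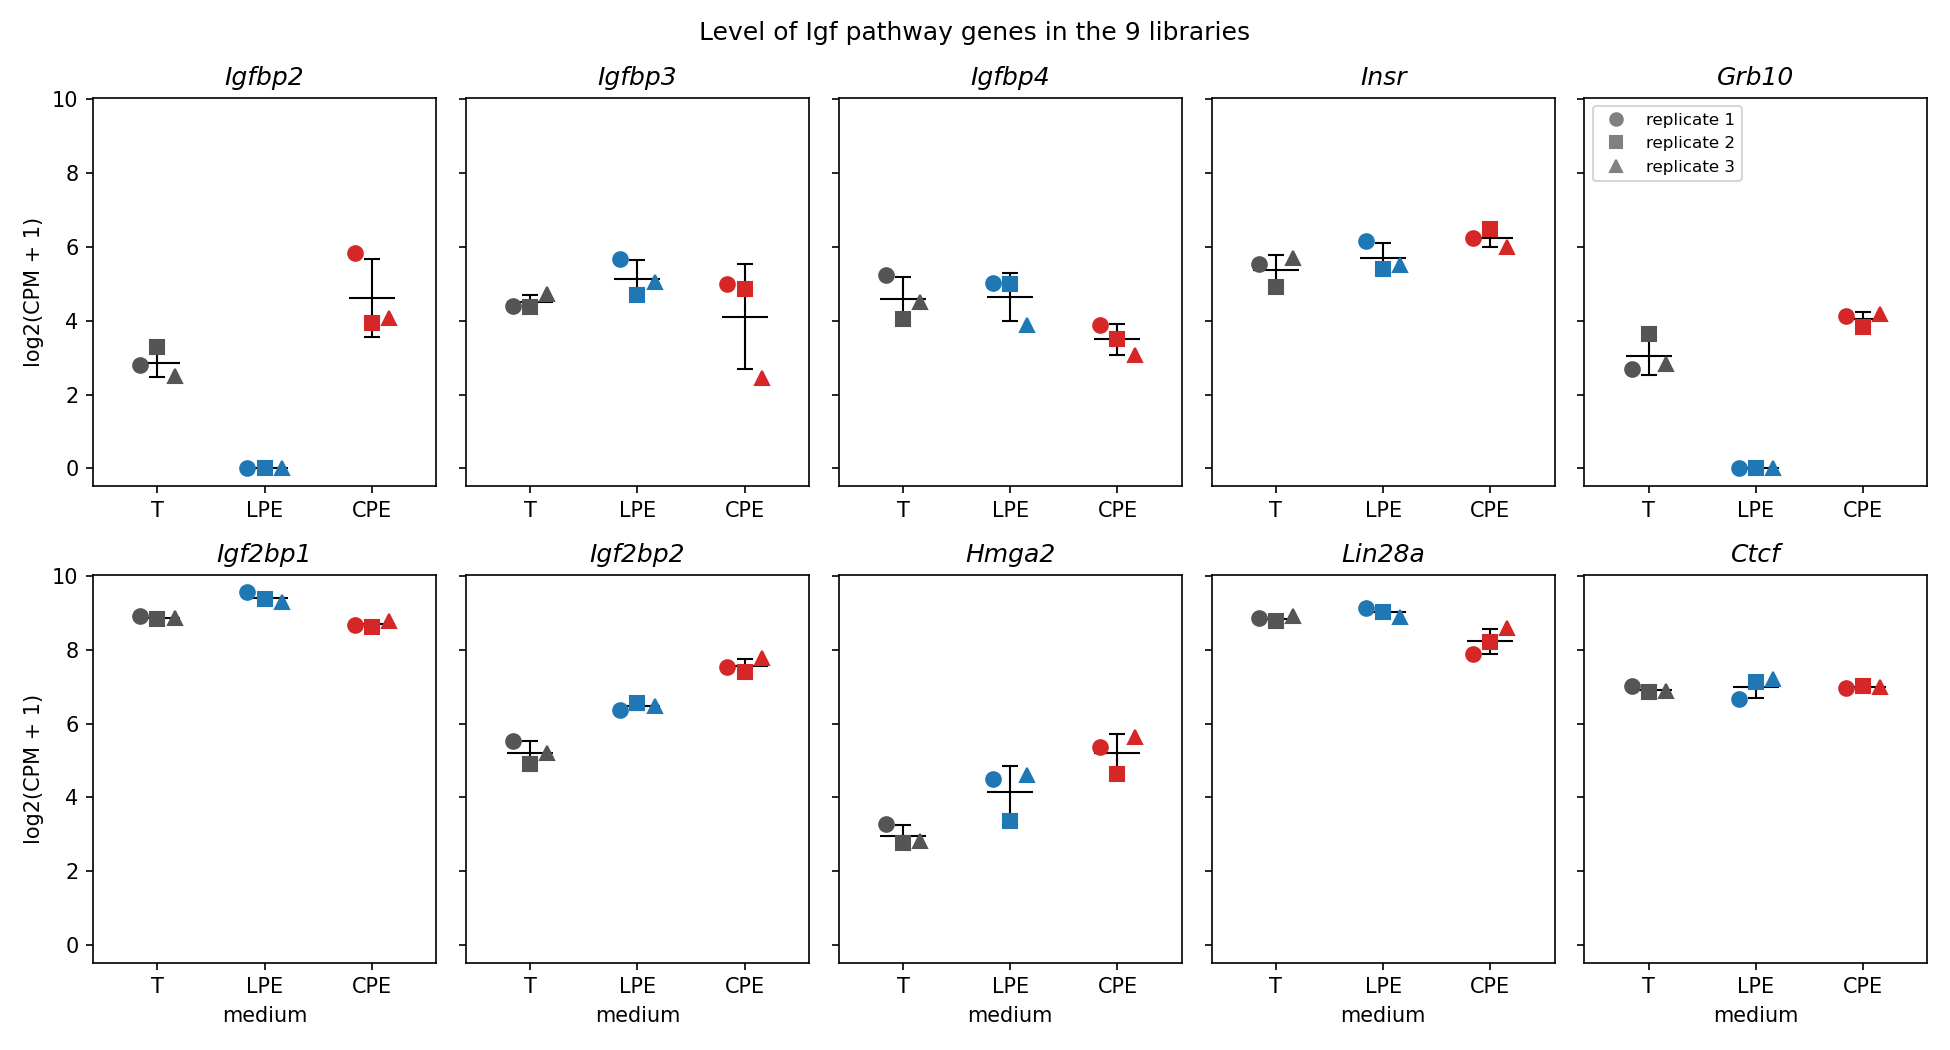
Levels of Igfbp2, Igfbp3, Igfbp4, Insr, Grb10, Igf2bp1, Igf2bp2, Hmga2, Lin28a and Ctcf as log2(CPM + 1) on the vertical axis, by medium, with 1 symbol per library and bars of mean ± SD (n = 3). The means of Igf2bp2 and Hmga2 are ordered T, LPE, CPE, Igfbp2 and Grb10 are at 0 in LPE, and the Ctcf means lie between 120.3 and 128 CPM.

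Among receptor adaptors, Grb10, itself an imprinted gene and an inhibitor of Igf1r and Insr signalling, was at 0 in all LPE libraries. It had 5.46, 11.6 and 6.04 CPM in T and 16.5, 13.2 and 17.1 CPM in CPE. LPE was at least 8.09-fold lower than T (edgeR adjusted p = 0.000562) and CPE at least 16.4-fold higher than LPE (edgeR adjusted p = 0.000361), while CPE did not pass against T (edgeR adjusted p = 0.331). LPE replicate 2 held 25 reads on the opposite strand of Grb10, and with reads of both strands the LPE calls were lost (log2 fold change -1.55 against T and 2.57 for CPE against LPE, adjusted p = 0.345 and 0.14). The docking proteins Irs1 (5.87, 4.22 and 2.31 CPM in T, LPE and CPE) and Irs2 (14.2, 16.2 and 15.9 CPM) did not pass in any comparison. Sos1, which activates Ras, rose 2.47-fold in LPE and 2.21-fold in CPE over T (edgeR adjusted p = 0.000186 and 0.000488). Grb2, the adaptor of Sos1, rose 1.74-fold in CPE over T (edgeR adjusted p = 0.00992), and the call was lost without T replicate 3 (0.0592).

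In the relay from PI3K to mTor, Rheb, the small GTPase that activates mTor, rose 2.43-fold in LPE and 3.002-fold in CPE over T (edgeR adjusted p = 0.000168 and 1.92e-05). Rptor, a subunit of mTor complex 1, rose 1.81-fold and 1.99-fold (edgeR adjusted p = 0.00569 and 0.0018). Tsc2, which inhibits Rheb, rose 1.86-fold and 1.71-fold as well (edgeR adjusted p = 0.00988 and 0.0203). The lipid phosphatase Inppl1 fell 2.08-fold in LPE against T (edgeR adjusted p = 0.00116). The transcription factor Foxo1, which Akt inhibits, rose 2.27-fold in LPE over T and was 2.00-fold lower in CPE than LPE (edgeR adjusted p = 0.00182 and 0.00809). Foxo3 rose 2.53-fold in LPE over T (edgeR adjusted p = 0.00186). Of the 27 tested genes of adaptors and relay, 7 rose and 4 fell in LPE against T (median log2 fold change 0.01), 6 rose and 1 fell in CPE against T (median 0.16), and 3 rose and 2 fell in CPE against LPE (median 0.25). Among all genes tested, 15.0% rose and 14.7% fell in LPE against T, and 16.8% and 15.3% in CPE against T. The shares in CPE against LPE were 9.56% and 8.23%.

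Other calls of this list were lost when certain single libraries were left out. Foxo4 in LPE was 2.54-fold below T, and in CPE 3.20-fold below it (edgeR adjusted p = 0.0488 and 0.0162), lost in LPE without any T library, LPE replicate 1 or 3, or CPE replicate 2 or 3 (0.0504 to 0.155), with a replicate block (0.0509), with RLE factors (0.0515) or without the filter on low counts (0.0734), and in CPE without any T library (0.0535 to 0.07). Akt2 was 1.81-fold lower in LPE than T (edgeR adjusted p = 0.0456), lost without any single library but LPE replicate 2 (0.0518 to 0.17) and with RLE factors (0.0506). Mtor was 1.498-fold higher in LPE than T (edgeR adjusted p = 0.02), lost without any T library (0.0596 to 0.0882). The Tsc2 call was lost without T replicate 3 in LPE (0.0533), and in CPE without T replicate 1 or 3 or CPE replicate 1 or 2 (0.0512 to 0.0911). Rps6kb1, an mTor target kinase, was 1.39-fold higher in CPE than T (edgeR adjusted p = 0.0445), lost without T replicate 1 or 3, LPE replicate 3 or any CPE library (0.0505 to 0.24) and with a replicate block (0.0618). CPE had 1.63-fold more Inppl1 than LPE (edgeR adjusted p = 0.0248), lost without LPE replicate 2 or 3 or CPE replicate 2 or 3 (0.0525 to 0.108). Foxo3 was 1.76-fold lower in CPE than LPE (edgeR adjusted p = 0.0445), lost without any single library but LPE replicate 3 or CPE replicate 1 (0.0573 to 0.157).

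**Figure D4:**
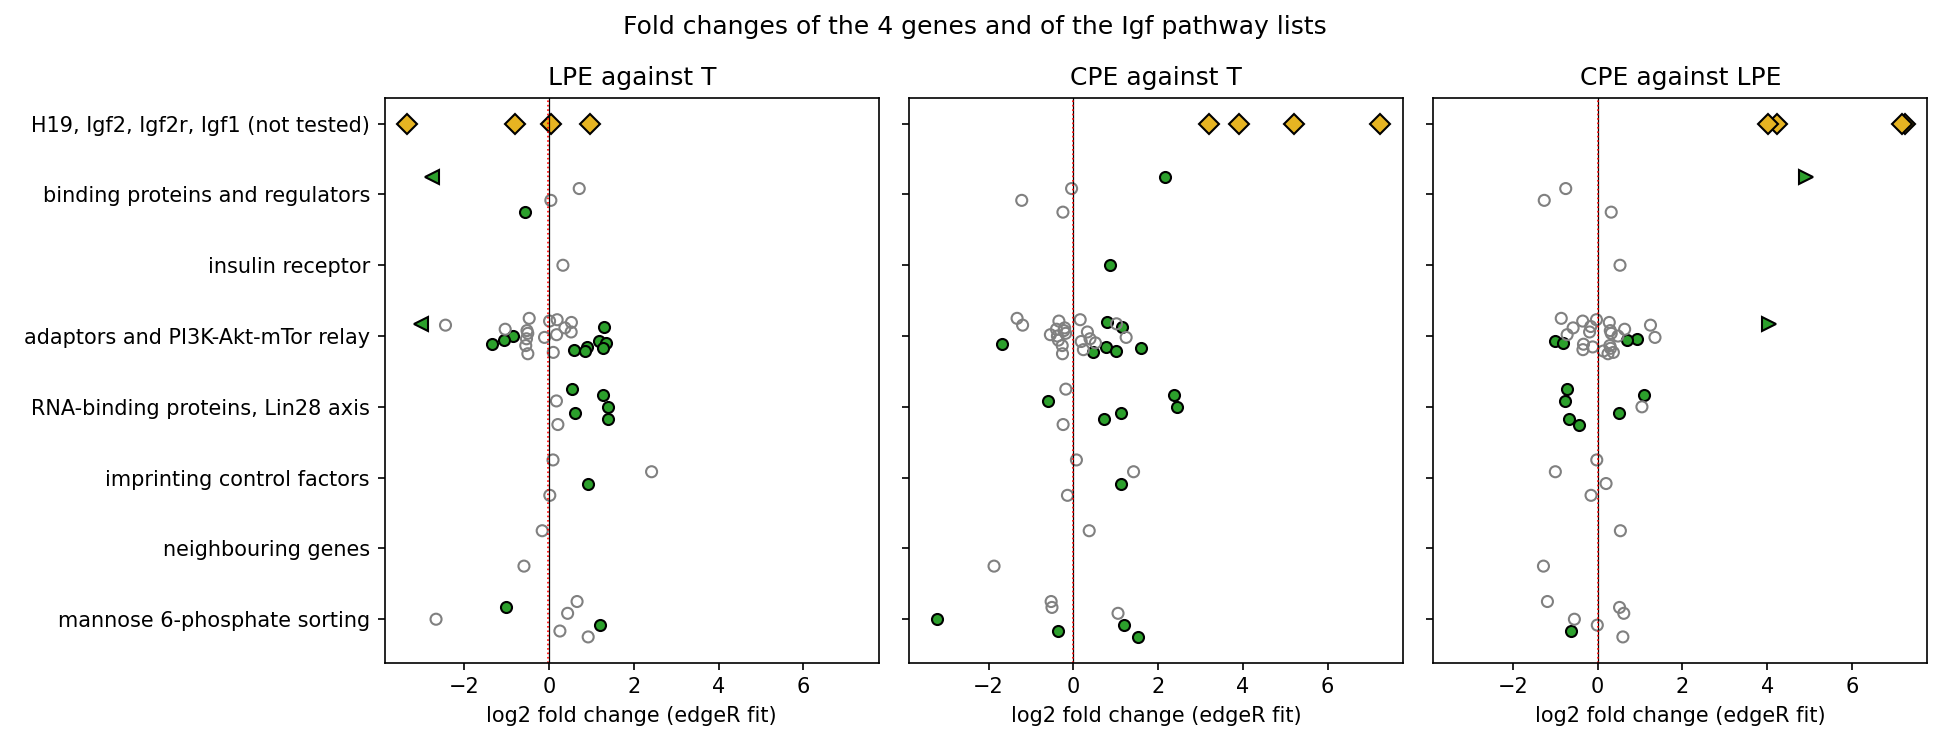
Log2 fold changes (horizontal axis) of the members, drawn as diamonds and not tested, and of the 52 tested Igf pathway genes in LPE against T, CPE against T and CPE against LPE. Filled green marks an edgeR adjusted p under 0.05, open grey none, triangles are lower bounds where LPE had 0 counts, and the dotted line is the median of all genes tested.

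The next list holds RNA-binding proteins that act on Igf2 or H19 RNA and the Lin28 to let-7 axis. Of its 7 tested genes, 71.4%, 71.4% and 85.7% were called in LPE against T, CPE against T and CPE against LPE. In LPE against T, 15.0% of all genes tested rose and 14.7% fell. These shares were 16.8% and 15.3% in CPE against T, and 9.56% and 8.23% in CPE against LPE. Nothing is read from the difference, since the lists were chosen with earlier results known. Igf2bp2, which binds Igf2 mRNA, had 45.3, 29.0 and 35.8 CPM in T, 81.5, 93.9 and 88.8 in LPE and 184, 167 and 217 in CPE. No groups overlapped, and it rose 2.40-fold from T to LPE and 2.15-fold from LPE to CPE, or 5.15-fold from T to CPE (edgeR adjusted p = 0.000214, 0.000638 and 4.95e-07). Igf2bp2 was thus already higher in LPE than in T. Hmga2, a chromatin protein and let-7 target that promotes Igf2bp2 transcription, had means of 6.86 ± 1.63, 18.0 ± 7.62 and 37.3 ± 12.6 CPM (SD, n = 3) in T, LPE and CPE. It was 5.42-fold higher in CPE than T (edgeR adjusted p = 0.00104), and 2.62-fold higher in LPE than T (edgeR adjusted p = 0.0368), the latter lost without any T library, LPE replicate 1 or 3, or CPE replicate 3 (0.0549 to 0.125).

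Igf2bp1, a paralog of Igf2bp2, was highest in LPE instead. Its means were 466.7 ± 13.4, 681 ± 64.5 and 413 ± 23.0 CPM (SD, n = 3) in T, LPE and CPE, 1.46-fold higher in LPE than T and 1.65-fold lower in CPE than LPE (edgeR adjusted p = 0.000881 and 0.000153). Lin28a, which blocks let-7 maturation, had 459.8 ± 23.7, 518 ± 43.5 and 305 ± 72.0 CPM (SD, n = 3) and was lower in CPE than in T by 1.51-fold and than in LPE by 1.70-fold (edgeR adjusted p = 0.0053 and 0.0016). The Igf2bp paralogs therefore differed in order across media, and Lin28a was lowest in CPE, where H19, Igf2, Igf2r and Igf1 were highest. Whether these levels are related was not tested. Elavl1, which binds many mRNAs and H19, rose from 234.5 to 357.4 and 509.9 CPM in T, LPE and CPE (edgeR adjusted p = 0.00111 for LPE against T, 3.63e-06 for CPE against T and 0.00535 for CPE against LPE). Khsrp, a decay factor that binds H19, had 132.5, 346.5 and 218.7 CPM, with both media above T and CPE below LPE (edgeR adjusted p = 9.91e-06, 0.00226 and 0.00595). Hnrnpu, an abundant nuclear RNA-binding protein, was 1.36-fold lower in CPE than LPE (edgeR adjusted p = 0.014), lost without CPE replicate 2 (0.0572). Of 7 tested genes of this list, 5 rose in LPE against T (median log2 fold change 0.61), 4 rose and 1 fell in CPE against T (median 0.72), and 2 rose and 4 fell in CPE against LPE (median -0.45). Igf2bp3 and Lin28b were not matched by symbol and are not analysed here.

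Among imprinting control factors, Trim28 changed and Ctcf did not pass. Ctcf, the insulator protein that binds the control region between H19 and Igf2, had 120.3 ± 7.05, 128 ± 24.5 and 126 ± 3.01 CPM (SD, n = 3) in T, LPE and CPE, and passed in no comparison (edgeR adjusted p = 0.735, 0.79 and 0.952). Trim28, a corepressor that keeps methylation at imprinted regions, rose 1.89-fold in LPE and 2.17-fold in CPE over T (edgeR adjusted p = 1.96e-06 and 2.42e-07), from 654.9 CPM to 1239 and 1422. Trim28 did not pass between LPE and CPE (edgeR adjusted p = 0.132). Of the 4 tested genes of this list, Trim28 alone was called, and the list median was 0.51 in LPE against T and 0.60 in CPE against T. Among all genes tested, 15.0% rose in LPE against T and 16.8% in CPE against T. The transcribed neighbours of the members were also listed. Mrpl23, a mitochondrial ribosomal gene beside H19, had 36.2, 32.5 and 47.1 CPM, and Lsp1 stayed under 5 CPM, and neither passed in any comparison. Tnni2 and Th near Igf2, and Mas1, Slc22a2 and Slc22a3 near Igf2r, were at 0 in all libraries.

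For the sorting role of Igf2r, the genes of the mannose 6-phosphate route were read. M6pr, the other mannose 6-phosphate receptor, had 5.72, 9.08 and 4.01 CPM in T, LPE and CPE and passed in no comparison. Gga1, an adaptor that loads such receptors into vesicles, exceeded T by 2.31-fold in LPE and by 2.30-fold in CPE (edgeR adjusted p = 0.00102 and 0.000952). Gga2 fell 1.54-fold in CPE against LPE (edgeR adjusted p = 0.000954). It was also 1.29-fold lower in CPE than T (edgeR adjusted p = 0.0183), lost without T replicate 3 (0.0704) or CPE replicate 3 (0.0657). Gga3 was 2.86-fold higher in CPE than T (edgeR adjusted p = 0.0164), lost without T replicate 2 or 3 or CPE replicate 1 (0.0512 to 0.0866). Sort1, another sorting receptor, went from 40.1 ± 11.9 CPM in T to 4.20 ± 4.20 in CPE (SD, n = 3; edgeR adjusted p = 0.0234), lost without T replicate 1 or 3 or CPE replicate 3 (0.0697 to 0.0875), with a replicate block (0.0566) and with DESeq2 (0.13). Its log2 fold change was -3.22, and -4.26 without CPE replicate 2. Gnptg, a subunit of the enzyme that makes the mannose 6-phosphate tag, was 2.03-fold lower in LPE than T (edgeR adjusted p = 0.0396), lost without any T library or LPE replicate 1 or 3 (0.0714 to 0.143), with a replicate block (0.0611) and without the filter on low counts (0.0537). Of 7 tested genes, 1 rose and 1 fell in LPE against T (median log2 fold change 0.44), 2 rose and 2 fell in CPE against T (median -0.37), and 1 fell in CPE against LPE (median -0.01). Among all genes tested, 15.0% rose and 14.7% fell in LPE against T, and 16.8% and 15.3% in CPE against T. In CPE against LPE, 8.23% of all genes fell.

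The tested genes whose levels ran most like each member's over the 9 libraries were found by Pearson's r of log2 CPM (prior count 2). The points are 3 media of 3 libraries and share library and depth, so r is a description. For H19 they were Bex1 (r = 0.990), Id2 (0.974) and Aaas (0.968). Bex1 had 44.0, 4.86 and 690.0 CPM on average in T, LPE and CPE, close in order and ratio to H19. Aaas had 88.0, 66.9 and 118 CPM, a far smaller change, since r does not depend on the size of a change. For Igf2 they were the transcription factors Gata2 (r = 0.990) and Hnf4a (0.989), and Tmtc4 (0.988). Gata2 had 1.06, 0.426 and 79.0 CPM on average, near the counting floor in T and LPE. Hnf4a had 19.1, 15.9 and 56.8 CPM, a far smaller change than that of Igf2. For Igf2r they were St3gal1 (r = 0.991), Pdzk1 (0.990) and Tspan8 (0.987), and for Igf1 they were Dtx4 (0.981), Car2 (0.978) and Rbmx (0.978). Between members, r was 0.943 for Igf2 and Igf1, 0.919 for Igf2r and Igf1, 0.885 for Igf2 and Igf2r, 0.872 for H19 and Igf2, 0.834 for H19 and Igf1, and 0.697 for H19 and Igf2r. H19 and Igf2r were the least alike of these pairs, with LPE below T for H19 and not for Igf2r. Many other tested genes ran closer to a member than its partners did. By r with H19, Igf2 ranked 171, Igf1 255 and Igf2r 702 among tested genes. For Igf2, Igf1 ranked 40 and Igf2r 164, and for Igf2r, Igf1 ranked 109. The members were chosen for their pattern across media, so nothing is read from the r between them.

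Markers of cells other than pXEN cells that could carry these transcripts were read in the same libraries. Of 7 fibroblast and mesoderm markers, T had counts in Col1a1, Col3a1 and Thy1 (summed level 1.39 to 32.4 CPM), LPE in none, and CPE in Thy1 (0 to 6.44 CPM), with Col1a2, Dcn, Lum and Postn at 0 throughout. The part of these markers in the members' levels was not tested. Of 7 trophoblast markers, the summed level was 0.930 to 2.73 CPM in T, 0 to 3.11 in LPE and 12.04 to 29.0 in CPE, where it came from Elf5 (9.73, 12.04 and 5.80 CPM), Cdx2 (8.26, 0 and 22.5 CPM) and Tfap2c. Gata3, Hand1, Ascl2 and Prl3d1 were at 0 in every library. The part of the trophoblast markers in the members' levels was not tested. Of 5 blood and endothelium markers, Pecam1 and Cdh5 gave nearly all of summed levels of 22.9 to 33.0 CPM in T, 65.4 to 96.0 in LPE and 17.0 to 22.7 in CPE, with Ptprc and Hbb at 0. Of 4 epiblast markers, Pou5f1 (which pXEN cells also transcribe) was present at 232 to 285 CPM in T, 230.1 to 327 in LPE and 99.2 to 163 in CPE, and Nanog, Sox2 and Fgf4 were at 0.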

How the data were processed

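Ribosomal RNA was removed, directional libraries were made, and sequencing was paired-end over 101 cycles, per the labels' protocols. The submitters' processing notes name CASAVA 1.8.2, Trimmomatic 0.33, STAR 2.5.1, DESeq2 and build rn6. Which gene annotation was used is not stated in the labels or headers. The authors deposited raw counts per gene symbol for each strand, and column 4, which holds nearly all gene reads, was used. Multimapping reads were counted for no gene. Counts of all 9 libraries were fitted with edgeR 4.0.16 in R 4.3.3 (quasi-likelihood F test, TMM factors, filterByExpr, 1 mean per medium), which kept 9130 of 17315 genes, with Benjamini-Hochberg adjustment over them and calls at 0.05. The fit shared 1 estimate of the spread per gene across all media. CPM use TMM factors. Alternatives were RLE factors, no filter, DESeq2 1.42.0, both strands, a replicate block and leaving out each library. The fit was tested on simulated data with 1 spread per gene shared by all media. Such data cannot check the p-values under the unequal spreads of these libraries. The members and lists were chosen with earlier results of these data known. Named were all members, Igfbp1 to Igfbp7, Insr, Irs1, Irs2, Igf2bp1 to Igf2bp3, Lin28a, Lin28b, M6pr, Ctcf and Ins2, any other list gene called with at least 5 CPM in its higher group, and the 3 genes most like each tested member; other list genes are named to describe loci at 0 or neighbours. Values of some genes under this rule are left out. All 5 members and 14810 symbols matched RefSeq symbols (GRCr8), and 4 members had a promoter entry.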

Additional observations from a re-analysis of the deposited data

Results flagged for a closer look

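Among the members and the miRNA rows within them, reads in rows or columns outside the members' gene-strand counts exceeded those of T in 4 cases. Igf2 had 10 opposite-strand reads in CPE replicate 3 and 0 in the other libraries. Opposite-strand reads of Igf2r reached 46 in LPE (replicate 3) and 43 in CPE (replicate 2), beside 4 to 11 in T, and CPE replicate 1 had 0. The Mir483 row within Igf2 reached 4 counts in CPE replicate 3 and was 0 in T. The depth of T was lower than that of LPE and CPE, and the difference from T was not tested.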

How the results depend on the processing

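The number of Igf pathway genes called in CPE against T was 19 and ranged from 11 (without T replicate 3) to 22 when single libraries were left out. Its number that fell, 4, was 1 without T replicate 3 and 2 without T replicate 1 or CPE replicate 3. In LPE against T, the pathway genes that fell went from 7 to 4 without any 1 T library, and all genes that fell from 1343 to 892 without T replicate 3. The other totals of calls, and the other counts in 1 direction, moved by no more than 1.5 times in the alternatives run. With a replicate block, 19, 16 and 13 pathway genes were called in LPE against T, CPE against T and CPE against LPE, and 2558, 2751 and 1500 of all genes. Deviations of same-numbered libraries from their group means correlated by -0.03 to 0.01. No pairing by number was seen, but a weak one could be missed among replicates this noisy. Of 53 pathway calls, 32 were kept in every alternative, 21 were lost in at least 1 and 0 reversed. Of 12 fold changes of the members, 2 moved by over 1 SD, both of Igf2 without LPE replicate 1, where LPE against T went from 0.03 to -5.72 on the log2 scale with LPE at 0. Low counts limit Igf1r everywhere, Igf2 in T and LPE, and H19 in LPE.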
